A study of Mus musculus and Rattus norvegicus with 12 samples.

Results

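The 39 interferon-stimulated genes described here are genes that cells switch on when interferon reaches them, and they were chosen by name from a fixed list of symbols, with case ignored. All 39 symbols were found among the 54087 symbols of the mouse count table, and 38 among the 28909 of the rat table, where Oasl1 had no row. RNA was sequenced from mouse hearts and from cultured rat heart cells in which Jmjd4, which encodes a JmjC-domain oxygenase, was targeted by a Cre or an siRNA, in a series whose title names PKM2 and dilated cardiomyopathy. Each system had 2 groups of 3 libraries. Control mice (flox) were Jmjd4f/f and carried no Cre, and cKO mice were MCM+ Jmjd4f/f with a Cre driven by Myh6, a gene of heart muscle cells. Both mouse groups received tamoxifen, and the heart apex was taken at day 14. Neonatal rat ventricular cardiomyocytes (NRVCs) came from Sprague-Dawley rats at 1 day of age, were enriched by letting faster-adhering cells settle first, and were given a control siRNA (siNC) or an siRNA against Jmjd4 (siJmjd4) for 48 h. The effects of Cre and of the targeted deletion cannot be told apart in the hearts, because the controls carried no Cre. The apex libraries are labelled cardiomyocytes but came from tissue in which endothelial, fibroblast and macrophage markers were all counted. Whether the NRVC replicates were separate isolations is not stated in the labels, so p-values for the NRVCs measure the spread of these libraries, which may be technical.

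Interferons are secreted proteins that cells release on sensing foreign or misplaced nucleic acid. Type I interferons bind the IFNAR receptor, and the kinases JAK1 and TYK2 activate the complex ISGF3, which includes STAT2 and IRF9 and binds interferon-stimulated response elements (ISREs) in promoters. Interferon gamma acts through a different element, the gamma-activated site (GAS). The induced genes encode antiviral effectors and also the sensors, transcription factors and inhibitors of the same pathway. In the heart they are best known from viral myocarditis and from the response of macrophages to dying muscle cells.

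The promoters of the members are shown first because the ISRE is the element through which ISGF3 acts. RefSeq promoter windows (GRCm38.p6, 250 bases before to 50 after the start) matched 30 of the 39 members by symbol, with 35 windows. The ISRE core was searched on both strands as GAAA and GAAA with any 2 bases between them, and overlapping matches were counted. It was found in 42.9% of the members' windows and in 3.44% of all 32851 windows. By gene, 15 of 30 members held it. The GAS motif, TTC and GAA with any 3 bases between them, reads the same on either strand in its fixed letters, and it was found in 22.9% of the members' windows and in 8.30% of all windows. These matches describe the letters of the windows and are not measured binding sites. The 6 sequences that follow come from members whose levels are described in the next paragraphs. All 6 are among the 15 that held the core, so they do not show how common it is. Other members described below, such as Ifit2, Oasl1 and Irf7, held no core in their windows. Each sequence is the 170 bases before the start, 5′ to 3′ on the gene's own strand, with each ISRE core in capitals.
Ifit1 (chr19:34640719-34640888, plus strand): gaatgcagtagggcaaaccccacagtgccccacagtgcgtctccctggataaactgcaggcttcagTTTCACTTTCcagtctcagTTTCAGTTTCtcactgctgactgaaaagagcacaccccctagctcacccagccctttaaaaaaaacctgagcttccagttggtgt
Ifit3 (chr19:34583359-34583528, plus strand): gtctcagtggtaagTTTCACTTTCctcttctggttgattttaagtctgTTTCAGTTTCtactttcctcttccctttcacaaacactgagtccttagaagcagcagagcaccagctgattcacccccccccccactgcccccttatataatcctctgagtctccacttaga
Oas1a (chr5:120907526-120907695, minus strand): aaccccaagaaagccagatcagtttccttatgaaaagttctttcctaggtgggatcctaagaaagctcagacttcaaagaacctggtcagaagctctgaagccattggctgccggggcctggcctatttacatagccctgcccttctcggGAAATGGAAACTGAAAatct
Oas3 (chr5:120777660-120777829, minus strand): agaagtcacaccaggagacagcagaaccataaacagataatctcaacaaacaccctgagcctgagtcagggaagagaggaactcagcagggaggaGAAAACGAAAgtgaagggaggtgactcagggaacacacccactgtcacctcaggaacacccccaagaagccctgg
Gbp2 (chr3:142620493-142620662, plus strand): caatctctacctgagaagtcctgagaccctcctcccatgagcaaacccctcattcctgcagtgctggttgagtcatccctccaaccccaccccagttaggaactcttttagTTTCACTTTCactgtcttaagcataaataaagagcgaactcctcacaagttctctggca
Isg15 (chr4:156200819-156200988, minus strand): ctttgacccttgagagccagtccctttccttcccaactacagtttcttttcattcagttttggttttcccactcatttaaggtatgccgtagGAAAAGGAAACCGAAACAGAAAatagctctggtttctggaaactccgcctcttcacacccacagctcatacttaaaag

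Isg15 had 3 overlapping cores and Ifit1, Ifit3 and Oas1a had 2 each, while Oas3 and Gbp2 had 1. On the printed strand the cores of Ifit1, Ifit3 and Gbp2 read as the reverse complement, with TTTC in place of GAAA. The nearest core ended 4 bases before the RefSeq start in Oas1a, 49 in Gbp2, 56 in Isg15, 65 in Oas3, 75 in Ifit1 and 112 in Ifit3. The gene positions given below come from another annotation (GENCODE M21), whose starts can differ. Its spans of Gbp2, Ifit1 and Oas3 reach into the printed bases, and the marked core of Gbp2 lies inside the span, which begins at chr3:142620602.

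The 12 libraries held 57174654 to 82187009 counts. Among the heart libraries flox replicate 3 was set apart, with 41.7% of its counts from the mitochondrial genome against 14.2% to 24.1%, and with 1485 tested genes at 0 against 125 to 503. In the NRVCs, siNC replicate 3 had 461 such genes against 78 to 137. Results are therefore given with and without these 2 libraries. Jmjd4 itself was at 14.6 ± 5.82 CPM (SD, n = 3) in flox and 7.83 ± 2.55 CPM (SD, n = 3) in cKO hearts (edgeR log2 fold change -0.90, SE 0.44, adjusted p = 0.397), and the groups overlapped. In the NRVCs it was at 2.95 ± 1.77 CPM (SD, n = 3) with siNC and 3.51 ± 0.0791 CPM (SD, n = 3) with siJmjd4 (0.25, SE 0.52, adjusted p = 0.770). The siNC libraries 1, 2 and 3 were at 3.46, 4.40 and 0.982 CPM and the siJmjd4 libraries at 3.58, 3.43 and 3.52 CPM, so the direction rested on siNC replicate 3, without which it turned to -0.16 (SE 0.21, adjusted p = 0.685). The heart value without flox replicate 3 was -0.79 (SE 0.43, adjusted p = 0.334). The test thus called no fall of Jmjd4 in either system. Levels are CPM, counts per library size after TMM scaling, and log2 fold changes are of the targeted group minus its control.

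In the hearts, interferon-stimulated genes lay higher in cKO than in flox for most members, but no single member passed the test with all 6 libraries. The log2 fold change was above 0 for 36 of the 39 members (92.3%, against 50% of all genes) and their median was 0.90, against 0.00 over all 18094 genes tested. Summed over the 39 members, the level was 628, 576 and 539 CPM in flox replicates 1, 2 and 3 and 1076, 925 and 953 CPM in cKO replicates 1, 2 and 3, so every cKO library lay above every flox library. In bulk tissue, a change in the number of cells of a type and a change in RNA per cell cannot be told apart. For 20 members the groups did not overlap and cKO was higher (51.3% of members, against 14.9% of all genes), for 0 members they did not overlap with cKO lower (11.2% of all genes), and for 19 they overlapped. By edgeR's quasi-likelihood test with Benjamini-Hochberg adjustment, 0 members were called higher at an adjusted p under 0.05 (0.37% of all genes were) and 0 lower (0.138%). At an unadjusted p under 0.05, 16 members were higher (41.0% of members, against 8.22% of all genes) and 0 were lower (6.79%). DESeq2 called 13 members higher (5.3% of all genes) and limma voom with quality weights called 24 (12%).

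Without flox replicate 3, 15 members were called higher and 0 lower (38.5% of members higher, against 4.26% of all genes higher and 2.93% lower), 37 of 39 had a log2 fold change above 0 and the median was 0.67. The 15 were Zbp1, Irf7, Ifit1, Ifit2, Ifit3, Oas1a, Oas3, Oasl1, Mx1, Gbp2, Isg15, Usp18, Parp9, Bst2 and Rtp4. Of these, 11 were also called by DESeq2, by voom and in a fit without both flox replicate 3 and cKO replicate 2, namely all but Irf7, Isg15, Bst2 and Rtp4. In none of these 4 settings were 12 members called, among them the transcription factor Irf1, the nucleotide enzymes Rsad2, Cmpk2 and Samhd1, and Mx2. Leaving out any other single heart library gave 0 calls among the members, but these fits called 0% of all genes in either direction.

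**Figure D1:**
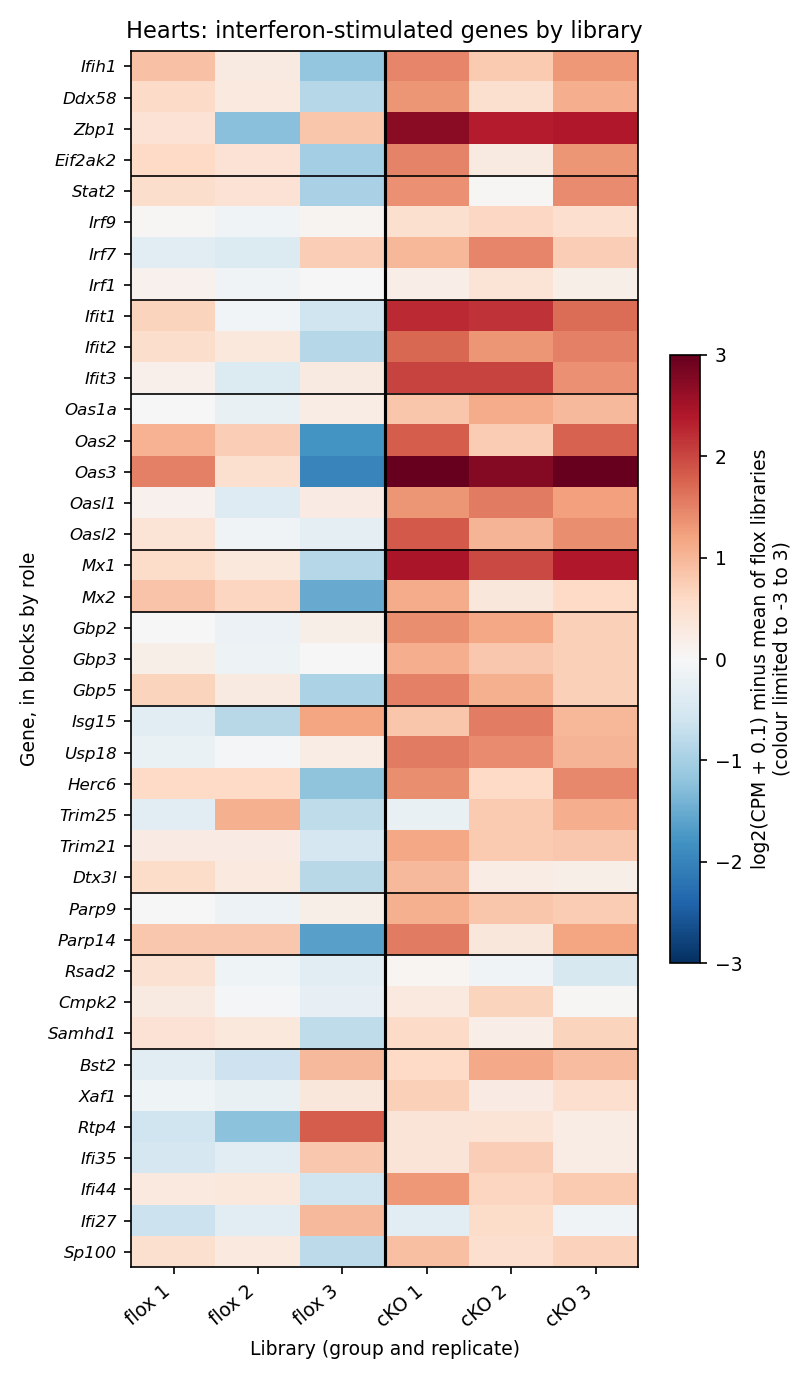
Level of each interferon-stimulated gene (rows, in blocks by role) in each of the 6 heart libraries (columns), as log2(CPM + 0.1) minus the mean of the 3 flox libraries, with the colour limited to -3 to 3. Most rows are redder in the 3 cKO columns than in flox, while flox replicate 3 is the bluest column for genes such as Oas2 and Parp14 and red for Rtp4, Isg15 and Ifi27.

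The IFIT family, whose proteins bind the ends of viral RNA and block its translation, had no overlap between the groups in any of its 3 members in the list. Ifit3 (chr19:34583531-34588731, mm10/GRCm38, plus strand) was at 13.6, 9.15 and 14.8 CPM in flox replicates 1, 2 and 3. In cKO replicates 1, 2 and 3 it was at 49.97, 50.5 and 31.6 CPM. Every cKO library lay more than 2-fold above every flox library (log2 fold change 1.82, SE 0.35, adjusted p = 0.0823 by edgeR, and 1.96, SE 0.32, adjusted p = 0.0182 without flox replicate 3). It had the smallest p of all members with 6 libraries. Ifit1, which holds 2 ISRE cores before its start, was at 9.29, 5.42 and 3.78 CPM in flox and 27.8, 26.1 and 18.7 CPM in cKO (chr19:34640871-34650009). The lowest cKO library was thus about 2-fold above the highest flox library (log2 fold change 1.97, SE 0.41, adjusted p = 0.0988, and 1.72, adjusted p = 0.0271 without flox replicate 3). Ifit2 was at 18.3, 15.6 and 6.95 CPM in flox and 41.4, 31.8 and 35.8 CPM in cKO (log2 fold change 1.42, adjusted p = 0.178, and 1.11, adjusted p = 0.0300 without flox replicate 3). The low value of flox replicate 3 widens the Ifit2 difference, which remained without it. Ifit3 has a near-identical neighbour, Ifit3b, at 4.59, 3.87 and 7.34 CPM in flox and 18.4, 18.4 and 11.9 CPM in cKO, and how the counting split reads between such copies is not stated in the labels.

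The OAS family makes oligoadenylates that activate RNase L, which degrades RNA. Oas3, the member with the largest fold change, was at 1.03, 0.454 and 0 CPM in flox and 6.39, 2.57 and 3.98 CPM in cKO (chr5:120753098-120777661, minus strand). Its log2 fold change of 3.08 (SE 1.12, adjusted p = 0.267) rests in part on flox replicate 3, which had no count of it, and was 2.54 (adjusted p = 0.0436) without that library. Oas1a, whose promoter holds 2 overlapping cores next to the start, was at 6.62, 5.67 and 7.74 CPM in flox and 11.9, 14.5 and 13 CPM in cKO. The groups were apart in every library, by about 2-fold on average (log2 fold change 0.98, adjusted p = 0.167, and 1.10, adjusted p = 0.0297 without flox replicate 3), with the near-identical Oas1g at 2.21, 1.80 and 1.69 CPM in flox and 4.30, 4.93 and 5.25 CPM in cKO. Oasl1, which in mice limits translation of IRF7, was at 2.68, 1.84 and 2.91 CPM in flox and 6.21, 7.40 and 5.88 CPM in cKO (log2 fold change 1.39, adjusted p = 0.112, and 1.52, adjusted p = 0.0286 without flox replicate 3). Oasl2 was at 21.2, 14.8 and 13.2 CPM in flox and 58.1, 32.5 and 42.2 CPM in cKO, apart in all libraries, yet it missed the threshold both with flox replicate 3 (log2 fold change 1.43, adjusted p = 0.128) and without it (1.303, adjusted p = 0.0558). Oas2 overlapped, with 23, 18.5 and 3.11 CPM in flox and 39.1, 18.7 and 38.1 CPM in cKO, because flox replicate 1 lay above cKO replicate 2.

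Mx1 and Mx2 encode dynamin-like GTPases that trap viral particles. Mx1 (chr16:97447035-97462907, minus strand) was at 1.36, 1.15 and 0.452 CPM in flox and 5.42, 3.88 and 5.20 CPM in cKO, with every cKO library above every flox library (log2 fold change 2.27, SE 0.48, adjusted p = 0.100, and 1.94, adjusted p = 0.0173 without flox replicate 3). Mx2, the neighbouring gene, was at 4.78, 4.07 and 0.847 CPM in flox and 5.69, 3.31 and 3.99 CPM in cKO. Its groups overlapped (log2 fold change 0.41, and -0.03 without flox replicate 3, adjusted p = 0.972). The guanylate-binding proteins attack the membranes around intracellular microbes and respond most strongly to interferon gamma. Gbp2 was at 15.7, 13.7 and 17.4 CPM in flox and 41, 34.7 and 25.7 CPM in cKO (chr3:142620602-142638008, log2 fold change 1.11, adjusted p = 0.155, and 1.21, adjusted p = 0.0415 without flox replicate 3). Gbp3 and Gbp5 did not overlap either, with log2 fold changes of 0.88 and 0.99, but neither was called without flox replicate 3 (adjusted p = 0.0646 and 0.249).

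Isg15 encodes a ubiquitin-like protein that is attached to newly made proteins, and Usp18 encodes the protease that removes it and that also blocks the IFNAR receptor. Isg15 (chr4:156199424-156200818, minus strand) was at 5.60, 3.89 and 16 CPM in flox and 12.6, 20.8 and 14.1 CPM in cKO. Flox replicate 3 was above cKO replicates 1 and 3, while flox replicates 1 and 2 were below all cKO libraries, so the log2 difference came to 0.90 (SE 0.57, adjusted p = 0.529) with that library and 1.74 (SE 0.31, adjusted p = 0.0248) without it. Usp18 was at 5.00, 5.62 and 6.66 CPM in flox and 17, 15.5 and 11.7 CPM in cKO, apart in every library (log2 fold change 1.36, adjusted p = 0.101, and 1.48, adjusted p = 0.0215 without flox replicate 3). The ubiquitin ligases of the list were not called in either fit. Their log2 fold changes were 0.98 for Herc6, which attaches ISG15 in mice, 0.43 for Trim25, which activates RIG-I, 0.90 for Trim21, an intracellular antibody receptor, and 0.40 for Dtx3l. Parp9, the partner of DTX3L, was at 17.6, 16.1 and 20.02 CPM in flox and 37.2, 31.6 and 30.6 CPM in cKO, apart in every library (log2 fold change 0.89, adjusted p = 0.195, and 0.98, adjusted p = 0.0351 without flox replicate 3). Parp9 and Dtx3l lie head to head and their annotated spans overlap (chr16:35938470-35972605 on the plus strand and chr16:35926511-35939151 on the minus strand), so without strand information reads from the overlap cannot be assigned with certainty. Parp14, another ADP-ribosyltransferase, overlapped (log2 fold change 0.76, adjusted p = 0.672).

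Among the sensors, Zbp1, which recognises Z-form nucleic acid and can trigger cell death, was at 2.14, 0.597 and 2.85 CPM in flox and 10.7, 8.39 and 8.68 CPM in cKO (chr2:173206612-173218923, minus strand). The lowest cKO library was almost 3-fold above the highest flox library (log2 fold change 2.32, SE 0.57, adjusted p = 0.128, and 2.76, adjusted p = 0.0307 without flox replicate 3). The RNA sensors Ifih1 (MDA5) and Ddx58 (RIG-I) and the translation-blocking kinase Eif2ak2 (PKR) overlapped between the groups, with log2 fold changes of 0.99, 0.89 and 0.97, and were not called without flox replicate 3. Among the transcription factors, Irf7, which drives the interferon alpha genes, was at 12, 11.3 and 24.9 CPM in flox and 29.8, 41.4 and 24.9 CPM in cKO. Flox replicate 3 and cKO replicate 3 were equal to 3 digits, and the difference was larger without that library (log2 fold change 1.00, adjusted p = 0.330, and 1.47, adjusted p = 0.0262 without flox replicate 3). The ISGF3 subunits Stat2 and Irf9 had log2 fold changes of 0.93 (overlapping) and 0.53 (not overlapping), and Irf1, which interferon gamma induces, had 0.26 (not overlapping), with adjusted p of 0.461, 0.115 and 0.512 without flox replicate 3.

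In Bst2 and Rtp4, flox replicate 3 was the highest flox library. Bst2 encodes tetherin, which holds budding virus at the cell surface, and was at 23.6, 19.7 and 58.9 CPM in flox and 45.3, 66.1 and 57 CPM in cKO. Flox replicate 3 was above cKO replicates 1 and 3 (log2 fold change 0.72, adjusted p = 0.553, and 1.38, adjusted p = 0.0219 without it). Rtp4, a receptor-transporting protein with antiviral activity, was at 4.61, 2.96 and 25.2 CPM in flox and 9.30, 9.42 and 8.30 CPM in cKO. Flox replicate 3 was the highest of all 6 libraries, and the direction turned from -0.28 with it to 1.26 (adjusted p = 0.0417) without it. The remaining members were not called in either fit. Their log2 fold changes with 6 libraries were 0.48 for Xaf1, an antagonist of the apoptosis inhibitor XIAP, 0.35 for Ifi35, 0.88 for Ifi44, -0.09 for Ifi27 and 0.61 for the nuclear-body protein Sp100. Those of the nucleotide enzymes were -0.19 for Rsad2 (viperin, which makes a chain-terminating nucleotide), 0.34 for its neighbour Cmpk2 (a mitochondrial nucleotide kinase) and 0.41 for Samhd1 (which breaks down deoxynucleotides). Rsad2 and Mx2 were the 2 members below 0 without flox replicate 3, at -0.34 and -0.03.

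**Figure D2:**
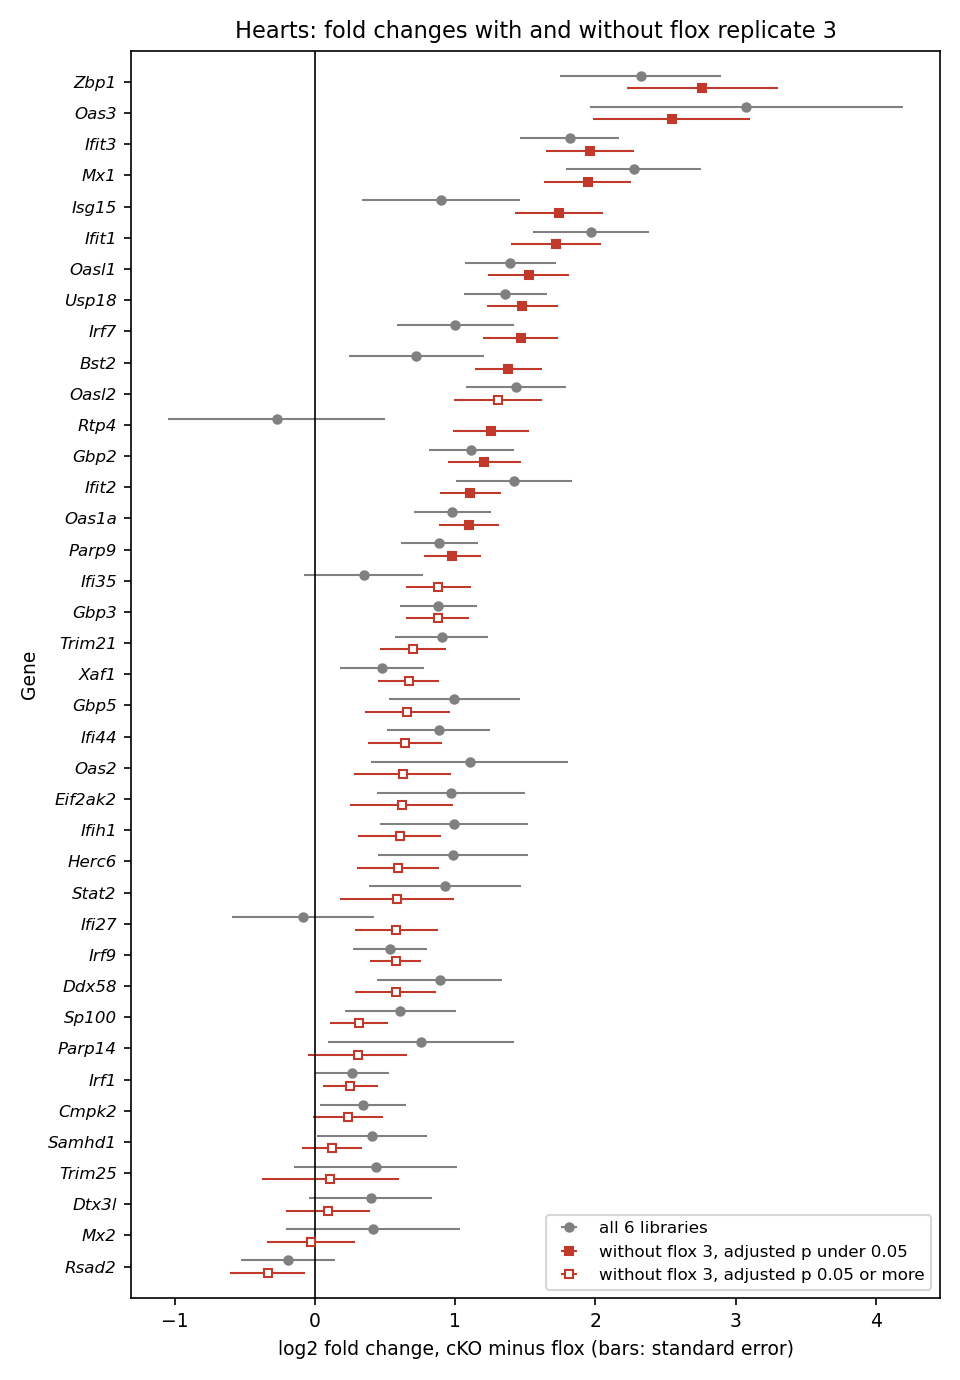
Log2 fold change of each member in the hearts, cKO minus flox (horizontal axis), with its standard error as a bar, from all 6 libraries (grey circles) and without flox replicate 3 (red squares, filled where the adjusted p was under 0.05). The 15 filled squares lie between 0.98 (Parp9) and 2.76 (Zbp1), and Rtp4 and Isg15 move furthest to the right when the library is left out.

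Compared per kilobase of exon, Bst2 was the most abundant member in both groups, at 37.7 CPM per kb in flox and 62.2 in cKO hearts. Ifit3 was at 7.17 CPM per kb in flox, below Bst2, Ifi27, Ifi35 and Isg15, and at 25.2 in cKO, below Bst2 alone. Ifi27 was at 25.5 and 24.0. The flox values include flox replicate 3, in which the short members Isg15, Bst2 and Ifi27 lay high, so the order in flox rests in part on that library. Ifi27 was at 21.2, 26.0 and 65.0 CPM in flox replicates 1, 2 and 3 and 26.7, 48.3 and 30.6 CPM in cKO. Its log2 fold change of -0.09 turned to 0.58 without flox replicate 3 (adjusted p = 0.304 by edgeR). Oas3 was the lowest in both groups, at 0.0700 and 0.610 CPM per kb.

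The position of flox replicate 3 among the members followed transcript length. Across the 39 members, the ratio of flox replicate 3 to the mean of flox replicates 1 and 2 had a Spearman rho of -0.74 with exon length, and the ratio of cKO replicate 2 to cKO replicates 1 and 3 had -0.73 (a description across genes of the same libraries, which are not independent). The trend was not particular to the members. Over all tested genes with a length, rho was -0.55 for flox replicate 3 and -0.51 for cKO replicate 2, against 0.27 to 0.51 for the other heart libraries. Each library was compared with the mean of the others of its group. The values within a group are therefore tied, and the positive ones are no independent baseline. In the NRVCs, with mouse lengths matched by symbol, it was -0.44 for siNC replicate 3 and -0.33 for siJmjd4 replicate 1, against 0.04 to 0.43. Of the 13 members with the shortest transcripts (756 to 3529 bases), 11 were above in flox replicate 3, with a median log2 ratio of 0.38. Of the 13 longest (5725 to 9306 bases), 0 were above, with a median of -1.303. The calls without flox replicate 3 were 10 of the 13 shortest, 4 of the 13 in the middle and 1 of the 13 longest. Shares of all genes in the same ranges of length were not computed. Leaving out cKO replicate 2 as well gave 12, 8 and 5, for 25 calls in all (64.1% of members, against 9.54% of all genes). With each library's length trend taken out as an offset and all 6 libraries kept, 2 members were called (5.13%, against 1.46% of all genes), Ifit3 (log2 fold change 1.81, adjusted p = 0.0375) and Isg15 (1.33, adjusted p = 0.0472), both among the 13 shortest. The median under that offset was 0.71.

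**Figure D3:**
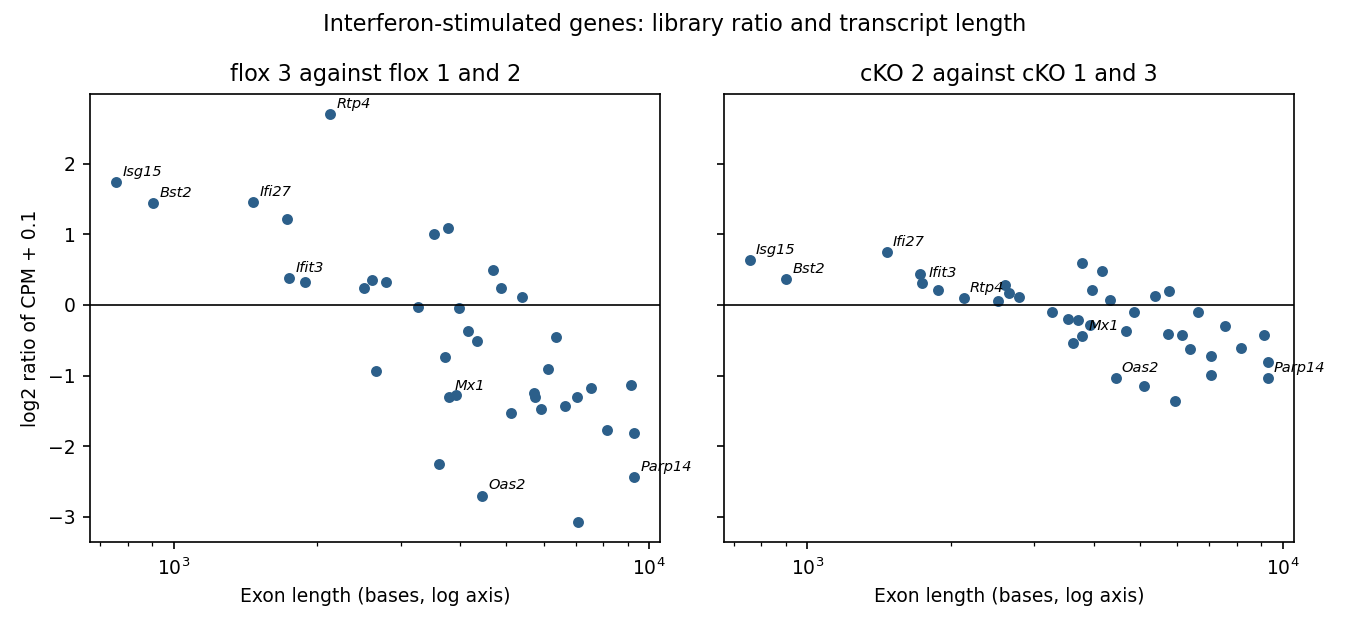
Ratio of flox replicate 3 to flox replicates 1 and 2 (left) and of cKO replicate 2 to cKO replicates 1 and 3 (right), as log2 of CPM + 0.1, against exon length in bases on a log axis, with 1 point per member. Both panels slope downward, with Spearman rho -0.74 and -0.73, and Isg15, Bst2, Ifi27 and Rtp4 lie above 0 in both.

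Upstream of these genes, the interferons themselves were near or at the limit of counting. All 18 interferon genes listed were in the mouse table and 0 of 18 passed the filter on low counts. Ifng, which encodes interferon gamma and is named here after its values were seen, had 0 counts in each of the 3 flox libraries and 9, 16 and 7 counts in cKO replicates 1, 2 and 3. Against a floor of 3 counts per flox library, its mean level was 2.32-fold higher in cKO (0.125 ± 0.0681 CPM, SD, n = 3). That floor allows for counting error in the flox libraries only, and the few cKO counts were taken as they were. Ifnb1 had 4 counts in cKO replicate 1 and 0 in the other 5 libraries, and the other interferon genes had none in any heart library. Of the 32 tested genes of the upstream list, 0 were called with all 6 libraries by edgeR, and 10 were higher (8.22% of all genes were) and 1 lower (6.79%) at an unadjusted p under 0.05. Without flox replicate 3, 6 were called higher (4.26% of all genes were): the transcription factors Irf8 (log2 fold change 1.40, adjusted p = 0.0128) and Irf5 (1.09, adjusted p = 0.0291), the feedback genes Ptpn6 (1.23) and Socs3 (0.97), the RNA helicase Dhx58 (1.28) and the DNA-sensing adaptor Tmem173 (STING, 1.22). Mavs, the mitochondrial adaptor of the RNA sensors, was the 1 called lower in the same fit (2.93% of all genes were), at 81.9, 80.3 and 107 CPM in flox and 33.3, 34.7 and 42.3 CPM in cKO (-1.14, adjusted p = 0.0207). None of the receptor genes Ifnar1, Ifnar2, Ifngr1, Ifngr2, Ifnlr1 and Il10rb was called in either fit.

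A further 65 interferon-induced genes outside the members were read from the same fits, of which 64 were tested. Their median log2 fold change was 0.63, 1 was called higher with all 6 libraries (0.37% of all genes were) and 14 without flox replicate 3 (4.26%). Cxcl10, a chemokine that draws T cells, was the 1 called, at 0.636, 0.545 and 0.649 CPM in flox and 3.56, 4.25 and 4.33 CPM in cKO (log2 fold change 2.73, adjusted p = 0.0387). The largest of the others without flox replicate 3 were Ifi27l2a (2.01, adjusted p = 0.0126) and Ifit3b (1.94, adjusted p = 0.0143). The ISRE core was in 43.1% of the promoter windows of this list and in 10% of those of the upstream list. Among the members, it was in 7 of the 10 matched genes called without flox replicate 3 and in 8 of the 20 not called.

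Markers of other cell types were read from the same heart fits. Of 60 markers tested, 2 were called higher with all 6 libraries (0.37% of all genes were): the monocyte chemokine receptor Ccr2, at 2.51, 2.92 and 3.64 CPM in flox and 14.3, 10.8 and 12.2 CPM in cKO (log2 fold change 2.04, adjusted p = 0.0493 by edgeR), and the smooth muscle gene Cnn1 (3.22, adjusted p = 0.0387). The 7 smooth muscle and pericyte markers together summed to 880 to 1248 CPM in flox and 837 to 909 CPM in cKO and overlapped. Their log2 fold changes were above 0 for 5 with all 6 libraries and for 3 without flox replicate 3. Of the 14 macrophage and monocyte markers, 13 had a log2 fold change above 0 and 9 were called higher without flox replicate 3 (4.26% of all genes were), among them Cd68, Adgre1, Fcgr1, Lyz2 and the complement genes C1qa, C1qb and C1qc. The 5 not called were Csf1r, Mrc1, Itgam, Ly6c2 and Cd163. Cd163 was the 1 below 0, at 32.3, 30.9 and 8.33 CPM in flox and 22.3, 14.0 and 15.9 CPM in cKO (log2 fold change -0.45, and -0.85, adjusted p = 0.0910 without flox replicate 3). The summed level of the 14, most of it from Lyz2 and the complement genes, was 492 to 997 CPM in flox and 988 to 1359 CPM in cKO and overlapped through flox replicate 3. Ptprc (CD45) was at 2.57 to 13.8 CPM in flox and 16 to 36.8 CPM in cKO.

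The 10 lymphocyte and NK markers summed to 3.05 to 4.46 CPM in flox and 8.66 to 9.60 CPM in cKO and went both ways. Cd4 (log2 fold change 1.89) and Cd8a (2.86) of T cells were called higher without flox replicate 3, while with all 6 libraries the value was -1.53 for Cd79a of B cells. Of the 5 neutrophil markers, the groups were apart only for Csf3r, at 3.30, 2.28 and 0.678 CPM in flox and 7.30, 4.87 and 7.42 CPM in cKO, while the log2 fold change was -0.53 for S100a8 and 0.03 for S100a9, and Cxcr2 and Ly6g were at or near 0. All 7 fibroblast markers had a log2 fold change above 0, and their sum was 778 to 1173 CPM in flox and 2339 to 5000 CPM in cKO. The 8 cardiomyocyte markers summed to 41395 to 45185 CPM in flox and 27222 to 35255 CPM in cKO, but 6 had a log2 fold change below 0 and 2 above. Myh7, the slow myosin heavy chain, was at 475, 494 and 78.3 CPM in flox and 8471, 4032 and 3657 CPM in cKO (log2 fold change 3.95, adjusted p = 0.101, and 3.48, adjusted p = 0.0124 without flox replicate 3), and Actn2 was at 0.47. Plasmacytoid dendritic cell markers (0.593 to 1.60 and 0.636 to 2.81 CPM) and endothelial markers (272 to 1083 and 711 to 996 CPM) overlapped. The part of these cells in the levels of the interferon-stimulated genes was not tested.

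In the NRVCs the members were split evenly between the directions, and none passed the test. Of the 38 members in the table, 35 passed the filter on low counts, while Zbp1, Oas3 and Gbp3 did not and Gbp3 had no count in any library. The log2 fold change of siJmjd4 minus siNC was above 0 for 17 (50.3% of all genes) and below 0 for 18 (49.7%), with a median of -0.01 against 0.01 over all 15497 genes tested. By edgeR 0 members were called higher (0.00645% of all genes were) and 0 lower (0%), 0 were under an unadjusted p of 0.05 (5.79% of all genes were, higher, and 2.92%, lower), and 0 were called by DESeq2 (0.879% of all genes higher, 0.207% lower) or voom (6.29% and 1.12%). The groups did not overlap for 2 members, Trim25 and Samhd1, both higher with siJmjd4 (5.71% of members, against 22.4% of all genes), and for 0 members lower (17.8% of all genes). Without siNC replicate 3 the median was -0.13 and 0 members were called (0.487% of all genes higher, 0.0823% lower).

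The spread among the control libraries was wide and shared by most members. SiNC replicate 2 was the highest of the 3 controls for 28 of the 35 members (80% of members, against 22.7% of all genes) and the lowest for 0. Mx1 was at 1.14, 8.09 and 1.06 CPM in siNC replicates 1, 2 and 3 and 2.21, 0.924 and 1.24 CPM in siJmjd4 replicates 1, 2 and 3. The single high library was siNC replicate 2, and the other 5 lay between 0.924 and 2.21 CPM (log2 fold change -1.23, SE 0.88, adjusted p = 0.417, and 0.42 without siNC replicate 2). Ifit3 was at 0.469, 4.06 and 0.906 CPM with siNC and 1.62, 0.892 and 1.21 CPM with siJmjd4, and Mx2 at 4.80, 30.5 and 12.6 CPM and 8.23, 4.53 and 15.1 CPM, again with siNC replicate 2 the highest. SiNC replicate 2 was singled out by these same values, so leaving it out raises the members' fold changes by construction. Without it, the members' median was 0.41, against 0.03 over all genes. Of the 35, 25 lay above 0 (71.4% of members, against 51.4% of all genes). In that fit 3 members were higher (4.24% of all genes) and 0 lower (6.88%) at an unadjusted p under 0.05, and 0 were called higher (0.0126%) or lower (0%). Among the treated libraries, siJmjd4 replicate 3 was the highest for 23 of 35 members (65.7%, against 39.2% of all genes), and it was kept in that fit.

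**Figure D4:**
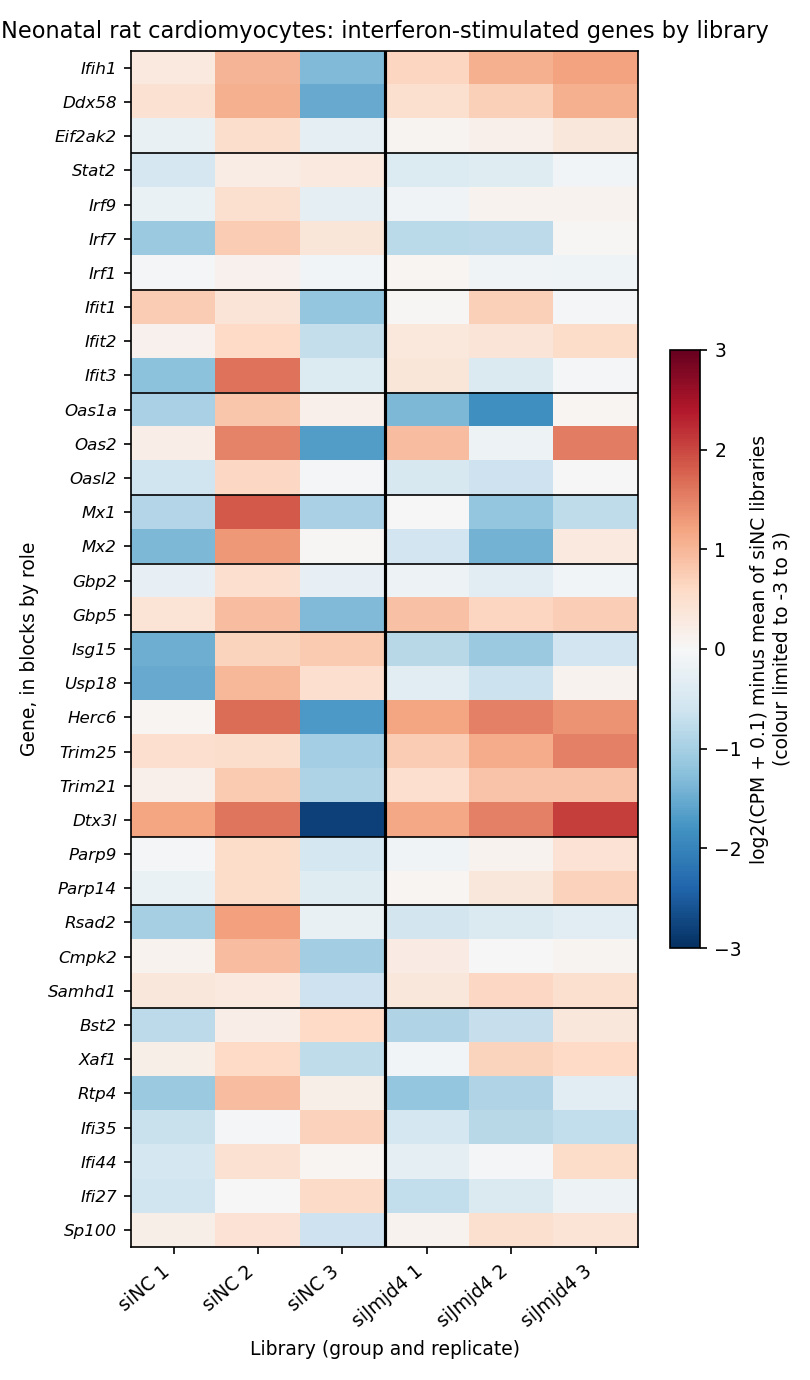
Level of each tested member (rows, in blocks by role) in the 6 NRVC libraries (columns), as log2(CPM + 0.1) minus the mean of the 3 siNC libraries, with the colour limited to -3 to 3. SiNC replicate 2 is the reddest control column, for 28 of 35 members the highest of the 3, and the siJmjd4 columns are of mixed colour.

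The members with the smallest p in the NRVCs pointed both ways, and each missed the threshold. Ifi35, an interferon-induced leucine zipper protein, was at 15, 23.2 and 38.7 CPM with siNC and 16.5, 13.3 and 14.1 CPM with siJmjd4 (log2 fold change -0.81, SE 0.35, adjusted p = 0.379 by edgeR). Trim25 was at 13.3, 13.4 and 4.53 CPM and 15.8, 20.2 and 26.7 CPM (1.01, SE 0.45, adjusted p = 0.379), so every treated library was above every control. Isg15 was at 2.88, 12.9 and 13.9 CPM and 4.48, 3.70 and 5.36 CPM (-1.13, adjusted p = 0.379). The first siNC library was below all 3 treated libraries and the other 2 were above them. Rtp4 was at 2.23, 9.45 and 5.55 CPM and 2.13, 2.58 and 3.90 CPM (-1.001), and Oas1a at 2.29, 8.30 and 5.15 CPM and 1.77, 1.23 and 4.83 CPM (-1.01). Ifi27, by far the most abundant member in these cells before length is considered, was at 212, 327 and 482 CPM and 194, 238 and 288 CPM (-0.50), and Trim21 at 9.17, 14.4 and 4.30 CPM and 11.8, 15 and 15 CPM (0.59). In all 4 the groups overlapped.

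Of the upstream list, 29 genes were tested in the NRVCs and 0 were called by edgeR, with 3 higher (5.79% of all genes were) and 0 lower (2.92%) at an unadjusted p under 0.05: Tlr3, a sensor of double-stranded RNA, at 5.56, 7.53 and 4.61 CPM with siNC and 10.6, 11.5 and 12 CPM with siJmjd4 (log2 fold change 0.95, adjusted p = 0.379), the SUMO ligase Pias1 (0.60) and the DNA sensor Cgas (0.75). Of the other interferon-induced genes, 42 were tested, 0 were called, and 0 were higher and 1 lower at an unadjusted p under 0.05, against the same shares of all genes (Psmb8, an immunoproteasome subunit, -0.83). Fibroblast markers summed to 35069 to 42197 CPM with siNC and 40805 to 47595 CPM with siJmjd4, and cardiomyocyte markers to 11830 to 18123 CPM and 10078 to 11787 CPM, so both cell types were present in the culture and their part in these values was not tested.

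The responses of the 2 systems were compared in 1 edgeR model of all 12 libraries, as the log2 fold change in hearts minus that in NRVCs, over 13482 genes whose symbols matched. The systems also differ in species, age, agent and time. The size of the difference rested in large part on siNC replicate 2, the control in which most members were highest. That library was singled out by the members' own values, so leaving it out lowers their differences by construction. With all libraries, 32 of the 35 members tested in both systems had a difference above 0 (47.8% of the 11848 genes tested in both did), and the median was 0.75 against -0.04 over those genes. Without siNC replicate 2, 23 of 35 were above 0 (47.3% of genes), the median was 0.31 against -0.06, 0 were called higher (0.789% of all genes were) or lower (0.124%), and 4 were higher (8.87%) and 0 lower (5.56%) at an unadjusted p under 0.05. Zbp1, Oas3 and Gbp3, which had too few rat counts for a test in the NRVCs, are left out of these counts and medians. With all 12 libraries edgeR called 0 members higher (1.34% of all genes were) and 0 lower (0.341%), 9 were higher (9.68% of all genes) and 0 lower (6.01%) at an unadjusted p under 0.05, and DESeq2 called 3 higher (5.38% of all genes), Gbp2, Mx1 and Oasl2.

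Mx1 had a log2 difference of 3.50 (SE 1.07, adjusted p = 0.135 by edgeR) with all 12 libraries and 1.85 (adjusted p = 0.273) without siNC replicate 2, and Ifit3 had 2.37 (SE 0.88, adjusted p = 0.210) and 0.96 (adjusted p = 0.439). Oasl2 had the smallest p with all libraries (1.86, SE 0.52, adjusted p = 0.103) and was at 1.48 without siNC replicate 2. Trim25 was at -0.59 (SE 0.77), the lowest of the 3 members below 0. Without flox replicate 3 and siNC replicate 3, 7 members were called higher in hearts (20% of the 35, against 7.16% of all genes) and 0 lower (5.68%), namely Ifit1, Ifit2, Mx1, Gbp2, Isg15, Parp9 and Ifi35. That fit keeps siNC replicate 2, which was the highest control for 28 of 35 members, and drops siNC replicate 3, which was the lowest for 20. Without flox replicate 3 and siNC replicate 2 instead, a setting chosen after seeing the data, 0 members were called higher (3.14% of all genes were) and 0 lower (1.33%), 20 of 35 were above 0 (50.2% of genes) and the median was 0.27. At an unadjusted p under 0.05, 8 were higher in that fit (15.1% of all genes) and 0 lower (11.1%). In these fits the difference was 2.07 (adjusted p = 0.0203) and 1.54 (adjusted p = 0.228) for Ifit1, and 1.56 (adjusted p = 0.0225) and 1.12 (adjusted p = 0.0881) for Gbp2.

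**Figure D5:**
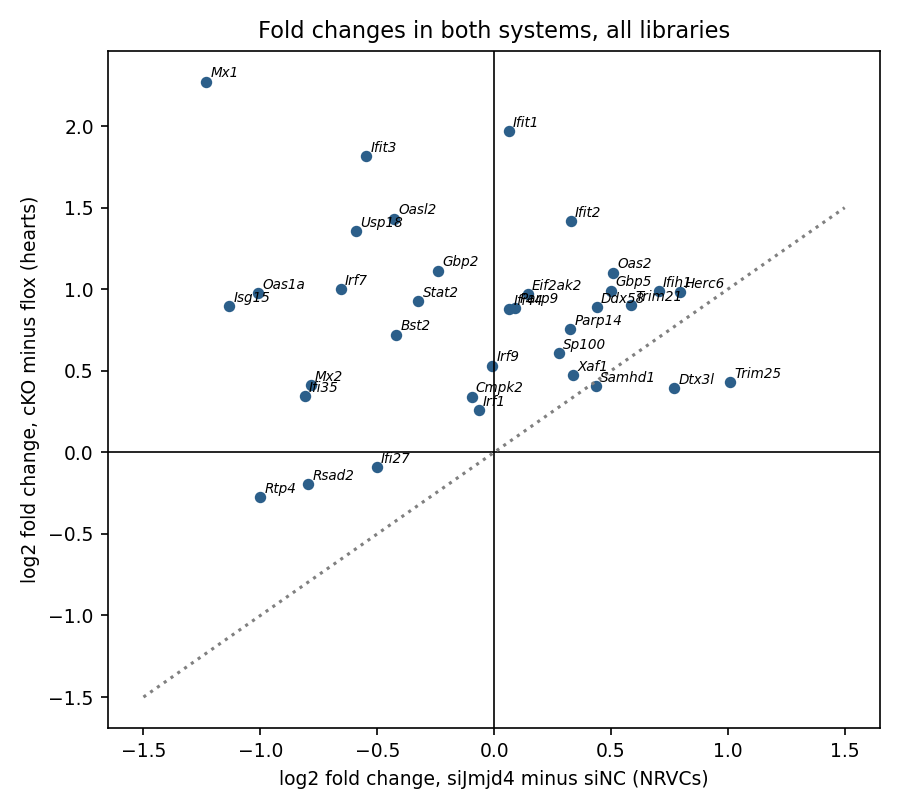
Log2 fold change in hearts, cKO minus flox (vertical axis), against that in NRVCs, siJmjd4 minus siNC (horizontal axis), for the 35 members tested in both, with all libraries and the dotted line at equal values. Most points lie above the line, Mx1 at 2.27 in hearts and -1.23 in NRVCs lies furthest from it (0.42 in NRVCs without siNC replicate 2), and Trim25, Dtx3l and Samhd1 lie at or below it.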

How the data were processed

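RNA was sequenced from 3 flox and 3 cKO hearts and from 3 siNC and 3 siJmjd4 NRVC samples, after TRIzol extraction and standard Illumina library preparation, per the labels' protocols. The authors deposited whole-number counts per gene symbol, not normalized, in 1 table per system. The submitters' processing notes name StringTie 1.3.4, HISAT2 2.1.0, edgeR 3.20.9 and the builds mm10 and rn6, without their roles. For the annotation, strand setting and counting, the rule was not given in the sources used here.

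Each table was fitted whole with edgeR 4.0.16 (R 4.3.3): filterByExpr, TMM scaling and a robust quasi-likelihood test with group as the only term, two-sided, with calls at an adjusted p under 0.05 (Benjamini-Hochberg, over the 18094 mouse or 15497 rat genes tested). Members were read out by symbol. Limma 3.58.1 and DESeq2 1.42.0 served as alternatives. Exon lengths and gene positions are those of GENCODE M21 (GRCm38, the assembly behind mm10), and 80.0% of tested mouse genes had a length. A count of 0 was taken to allow up to 3 counts. The depth of 57174654 to 82187009 counts per library limits members near 1 CPM or less, such as mouse Oas3 and rat Oas2. Single genes were not given an exact permutation test, since 3 libraries against 3 allow no p below 0.1.

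Per-library values are given for members called in either fit and, in each system, for at least the 8 with the smallest p. Some others are given after their values were seen. The members and lists were chosen with earlier results of these data known. The code was tested on simulated data with changes of known size. In the simulated mouse comparison, 0% of 2-fold, 3.08% of 4-fold and 46.8% of 16-fold changes were recovered, with 0 false calls. In the simulated rat comparison, the shares were 7.58%, 62.1% and 92.3%, with 5 false calls. A member without a call can therefore still differ by 2-fold or 4-fold in either system, and by 16-fold in the hearts. Alternatives were other scaling, other tests, other filters, a length offset, a replicate block and fits without single libraries.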

Additional observations from a re-analysis of the deposited data

How the results depend on the processing

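With all 6 heart libraries 0 members were called higher (0.37% of all genes were). DESeq2's Wald test called 13 (5.3% of all genes), limma voom with quality weights 24 (12%) and the length offset 2 (1.46%). The fit without flox replicate 3 and cKO replicate 2 called 25 (9.54% of all genes). Leaving out each library in turn gave 0 to 15, the 15 without flox replicate 3 (4.26% of all genes). The fits without any other single heart library called 0% of all genes. The other scalings, the filters and the mitochondrial genes left out gave 0 (0.111% to 0.495% of all genes were called higher), and no setting called a member lower. The members' median was 0.90, 0.67 to 1.03 with each library left out and 1.38 with total counts alone, a scaling that moved the median of all genes to 0.54. Rtp4 turned from -0.28, which was -0.71 to 1.26 with each library left out, to 0.83 with total counts alone, 1.23 with voom, 1.26 without flox replicate 3 and 1.21 without cKO replicate 2 as well. In the NRVCs 0 members were called in any setting, the median of -0.01 was -0.13 to 0.41 with each library left out, and Mx1, at -1.23, was -1.66 to 0.42, the 0.42 without siNC replicate 2. For the difference between the systems, 0 members were called higher with all libraries (1.34% of all genes were). DESeq2 called 3 (5.38% of all genes), and the fit without flox replicate 3 and siNC replicate 3 called 7 (7.16%). Leaving out each library in turn gave 0 to 1 (1 without flox replicate 3 and 1 without siNC replicate 1). The share of all genes in these single-library fits is given only for siNC replicate 2 (0.789%). Without flox replicate 3 and siNC replicate 2, a setting added after seeing the data, 0 members were called higher (3.14% of all genes). The cause of these changes was not tested. The interferon genes and, in the NRVCs, Zbp1, Oas3 and Gbp3 had too few counts for a test, for a reason that was not tested.

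With the replicate block, 0 members were called in the hearts, in the NRVCs and for the difference, the median was 0.96 in hearts and 0.08 in NRVCs, and Rtp4 was at 0.42 in hearts. That block called 0% of all genes in the hearts and in the NRVCs. The deviations of same-numbered replicates from their group means correlated at 0.36, -0.48 and -0.33 in hearts and at -0.14, -0.02 and -0.15 in NRVCs, so the numbers were not taken to pair the samples, and not every library correlated best with its own number.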
